A study of Mus musculus with 6 samples.

Results

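The interferon regulatory factors are a family of transcription factors that bind repeats of GAAA in DNA through a shared tryptophan-rich domain. Some members, IRF3 and IRF7, are switched on by kinases downstream of viral nucleic acid sensors and drive interferon genes, while IRF9 joins STAT proteins in the complex that carries the interferon signal to its target genes. In bone marrow the family is also known for lineage roles: IRF8 drives progenitors towards monocytes and dendritic cells at the expense of neutrophils, IRF4 acts in B cells, plasma cells and dendritic cells, and IRF1 and IRF2 act as an activator and a competing repressor on shared sites. The 8 genes Irf1, Irf2, Irf3, Irf4, Irf5, Irf7, Irf8 and Irf9 were taken by symbol from a count table of 24421 gene rows, and all 8 had enough counts to be tested.

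RNA was sequenced from LK cells of C57BL/6 bone marrow, the fraction that lacks lineage markers and carries c-Kit, in which myeloid, erythroid and megakaryocyte progenitors are found beside stem cells. Of 6 libraries, 3 were from ASXL1-MT-KI mice, which carry a knocked-in mutant of the chromatin regulator ASXL1, and 3 from wild type littermates, all aged 8 to 12 weeks. The sources used here do not give the knock-in locus, the mutation, any Cre driver or whether each library was 1 animal. If libraries of a group were not from separate animals, the p-values below measure only the spread between these libraries.

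The libraries held 40462168 to 47579480 counts. Asxl1 itself, which checks the labels, averaged 320.1 ± 8.71 CPM in ASXL1-MT-KI and 170.4 ± 5.43 CPM in wild type (CPM, counts scaled by TMM to a common library size; SD, n = 3 each, as for every mean ± SD below). Of 13548 genes tested, 16.0% passed an adjusted p of 0.05 (quasi-likelihood test of edgeR, adjusted by Benjamini-Hochberg over all tested genes, as for each adjusted p below), 1123 higher and 1042 lower in ASXL1-MT-KI, or 1562 and 767 when libraries were scaled to total counts. Libraries with the same replicate number deviated from their group means together, most for number 3 (correlation across genes 0.391, against 0.253 and 0.162 for numbers 1 and 2). An unequal pair, ASXL1-MT-KI 1 and wild type 2, correlated at 0.163, so it is not known whether equal numbers are pairs. Values with the replicate number as a block are given beside the calls they change, against a background of 30.5% of genes called in that fit. At an unadjusted p under 0.05, 30.4% of all tested genes passed in the main fit, the background for each unadjusted count below. The LK markers Kit and Mpo were high in every library, with Kit at 382.8 ± 11.7 CPM in ASXL1-MT-KI and 406.4 ± 41.0 CPM in wild type, and markers of other cells are given with the lists below.

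Promoter sequence is shown first for 3 members that carry matches to binding motifs of the interferon and NF-kB pathways and whose transcripts behaved differently, Irf1, Irf2 and Irf8. RefSeq's table for GRCm38.p6 held windows for all 8 genes, and the 250 bases before the annotated start were searched on both strands. The motifs were the IRF repeat (GAAA, any 2 bases, GAAA), the ETS-IRF composite (GGAA, any 2 bases, GAAA), the interferon gamma activated site bound by STAT proteins (GAS, TTCNNNGAA), the AP-1 site TGANTCA and the consensus of NF-kB. Capitals mark the matches, and each window is on the plus strand, at chr11:53769764-53770013 for Irf1, chr8:46739495-46739744 for Irf2 and chr8:120736108-120736357 for Irf8.

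Irf1: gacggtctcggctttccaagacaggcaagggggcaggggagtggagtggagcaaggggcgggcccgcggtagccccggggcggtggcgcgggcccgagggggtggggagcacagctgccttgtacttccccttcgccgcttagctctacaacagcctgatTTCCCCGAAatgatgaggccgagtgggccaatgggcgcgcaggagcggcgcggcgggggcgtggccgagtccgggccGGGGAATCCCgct
Irf2: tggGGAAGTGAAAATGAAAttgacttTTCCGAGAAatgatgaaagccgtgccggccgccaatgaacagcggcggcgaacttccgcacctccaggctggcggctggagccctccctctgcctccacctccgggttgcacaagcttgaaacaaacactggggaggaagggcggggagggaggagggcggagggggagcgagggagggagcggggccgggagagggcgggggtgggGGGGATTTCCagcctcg
Irf8: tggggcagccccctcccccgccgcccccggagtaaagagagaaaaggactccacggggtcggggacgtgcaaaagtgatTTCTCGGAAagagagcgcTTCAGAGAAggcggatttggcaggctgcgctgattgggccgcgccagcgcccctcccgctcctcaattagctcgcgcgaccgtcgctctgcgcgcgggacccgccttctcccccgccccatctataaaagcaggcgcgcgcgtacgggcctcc

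Irf1 carried a GAS from -90 to -82 relative to its start and an NF-kB match from -13 to -4. Irf2 carried the ETS-IRF composite from -247 to -238, overlapped by an IRF repeat from -241 to -232, a GAS from -224 to -216 and an NF-kB match from -17 to -8. Irf8 carried a pair of GAS matches, from -171 to -163 and from -153 to -145. No match lay in the windows of Irf3, Irf4, Irf5, Irf7 and Irf9, or in those at second annotated starts of Irf1, Irf8 and Irf9. Among all 32851 windows of this length, 7.02% held a GAS, 3.9% an NF-kB match, 6.75% an AP-1 site, 2.98% an IRF repeat and 2.3% an ETS-IRF composite. A match describes the letters in the window and is not evidence that a factor binds there.

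In ASXL1-MT-KI cells Irf1, Irf4 and Irf7 fell and no member rose past the threshold. The 3 falls and 0 rises among 8 members stand beside 7.69% of all tested genes lower and 8.29% higher in ASXL1-MT-KI, and the median log2 fold change of these members was -0.09, against 0.00 for all tested genes. At an unadjusted p under 0.05, Irf3 and Irf8 were also higher (2 of 8, beside 16.2% of all genes in that direction at that threshold), and DESeq2 and limma-voom called the same number, 0 higher and 3 lower. The groups did not overlap for 5 of 8 members, 3 lower and 2 higher, where 35.2% of all tested genes had groups that did not overlap. With the replicate block 6 of 8 passed, with Irf9 lower and Irf3 and Irf8 higher in addition.

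**Figure D1:**
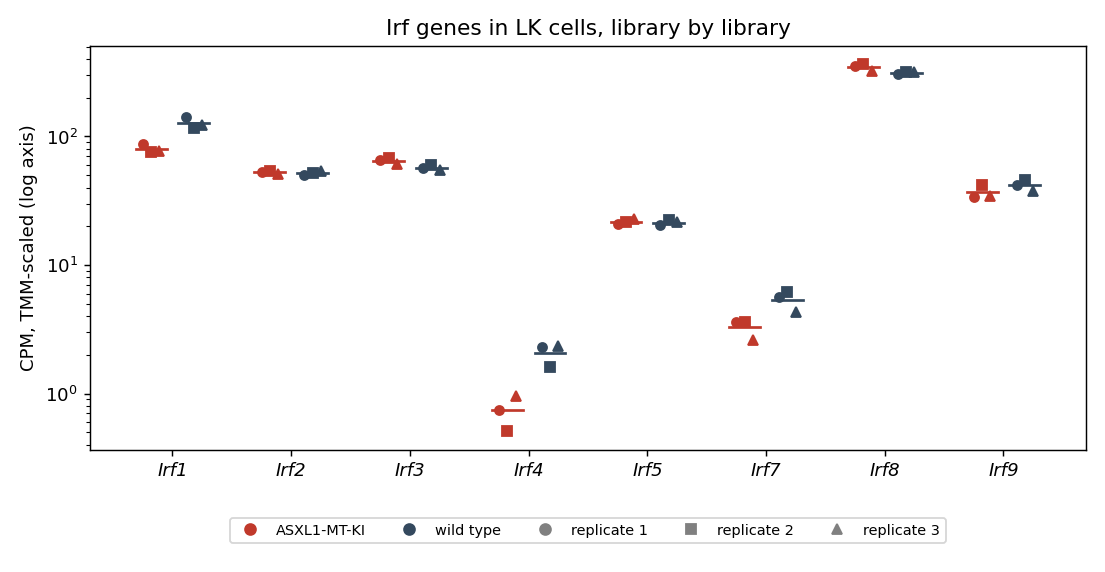
TMM-scaled CPM of the 8 Irf genes on a log axis, with 1 point per library (marker shape gives the replicate number), a bar at the mean of 3, and ASXL1-MT-KI left of wild type for each gene. Irf1, Irf4 and Irf7 lie lower in every ASXL1-MT-KI library, and Irf8 is the most abundant member in both groups.

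Irf1, on chromosome 11 from 53770014 to 53778374 in mm10 coordinates, encodes an activator that interferon gamma induces. It had 4215, 3433 and 3211 counts in ASXL1-MT-KI libraries 1 to 3, against 6493, 5347 and 4944 in wild type libraries 1 to 3. Every ASXL1-MT-KI library was below every wild type library, also after scaling. The means were 80.4 ± 6.49 CPM in ASXL1-MT-KI and 126.6 ± 13.1 CPM in wild type (log2 fold change -0.66 ± 0.084, SE; adjusted p = 0.00128). The call held in all 14 refits with another scaling, test, filter, block or set of libraries, with log2 fold changes from -0.73 to -0.57.

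Irf2, on chromosome 8, encodes the factor that competes with IRF1 for its sites, and it did not follow. It had 2557, 2422 and 2099 counts in ASXL1-MT-KI and 2302, 2394 and 2197 in wild type, and the groups overlapped, at 52.5 ± 1.64 and 52.2 ± 1.99 CPM. The log2 fold change was 0.01, with a 95% interval (not adjusted for the number of genes) of -0.11 to 0.13. The ratio of Irf1 to Irf2 counts, which needs no scaling, was 1.65, 1.42 and 1.53 in ASXL1-MT-KI libraries, against 2.82, 2.23 and 2.25 in wild type libraries. The ratio was lower in 3 of 3 ASXL1-MT-KI libraries, with a mean log2 difference of -0.66 (two-sided exact permutation p = 0.1, the smallest that 3 against 3 allows, and 0.1 after adjustment over 5 such ratios).

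Of the virus-responsive pair, Irf7 fell and Irf3 did not. Irf7, on chromosome 7 from 141262706 to 141266481, encodes the factor that amplifies type I interferon production and is itself induced by interferon. It had 172, 162 and 109 counts in ASXL1-MT-KI and 258, 281 and 176 in wild type. The groups did not overlap, but the number 3 library of each genotype was the lowest, with a log2 CPM difference from the mean of numbers 1 and 2 of -0.44 in ASXL1-MT-KI and -0.43 in wild type. Irf7 averaged 3.27 ± 0.552 CPM in ASXL1-MT-KI and 5.36 ± 0.924 CPM in wild type (log2 fold change -0.71 ± 0.18, SE; adjusted p = 0.0242). Leaving out ASXL1-MT-KI library 3 (adjusted p = 0.0613), wild type library 1 (adjusted p = 0.0929) or wild type library 2 (adjusted p = 0.075) ended this call, while with number 3 left out of both groups it stood (log2 fold change -0.71, adjusted p = 0.00845).

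Irf3, also on chromosome 7, encodes the constitutively expressed factor that acts first after viral sensing. It had 3138, 3075 and 2538 counts in ASXL1-MT-KI and 2632, 2729 and 2207 in wild type, or 64.9 ± 3.45 and 57.1 ± 2.58 CPM. Every ASXL1-MT-KI library was above every wild type library after scaling, but the difference did not pass (log2 fold change 0.18 ± 0.060, SE; adjusted p = 0.0663). It passed with the replicate block (adjusted p = 0.00704), with total counts (adjusted p = 0.0218) and with number 3 left out of both groups (adjusted p = 0.0436). The ratio of Irf7 to Irf3 was 0.0548, 0.0527 and 0.0429 in ASXL1-MT-KI, against 0.098, 0.103 and 0.0797 in wild type, lower in 3 of 3 libraries with a mean log2 difference of -0.90 (two-sided exact permutation p = 0.1).

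Irf9, on chromosome 14, encodes the subunit that gives the interferon-activated STAT complex its DNA specificity. It had 1637, 1882 and 1430 counts in ASXL1-MT-KI, against 1935, 2087 and 1532 in wild type, and the groups overlapped at 36.7 ± 4.24 and 41.8 ± 3.90 CPM. Within each replicate number the ASXL1-MT-KI library was the lower one after scaling. The difference did not pass (log2 fold change -0.19, adjusted p = 0.224) except with the replicate block (adjusted p = 0.0225). Irf5, on chromosome 6, which acts downstream of Toll-like receptors, had 993, 977 and 941 counts in ASXL1-MT-KI and 932, 1024 and 876 in wild type, or 21.7 ± 0.997 and 21.4 ± 1.02 CPM. Its groups overlapped, with a log2 fold change of 0.02 and a 95% interval of -0.14 to 0.18. These counts carry a limit, since 14.1% of the exon bases of Irf5 also lie in exons of Tnpo3 on the other strand, a gene at 169.9 CPM in ASXL1-MT-KI and 168.4 CPM in wild type, and the library kit does not mark strand.

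Irf8 was the most abundant member. The gene, on chromosome 8 from 120736358 to 120756694, had 17051, 16474 and 13349 counts in ASXL1-MT-KI and 14048, 14638 and 12893 in wild type, or 347.2 ± 22.5 and 314.3 ± 7.19 CPM. All 3 ASXL1-MT-KI libraries lay above all 3 wild type libraries after scaling, the number 3 library by the least, at 321.8 CPM against a highest wild type value of 319.2 CPM. The difference was small and did not pass (log2 fold change 0.14 ± 0.055, SE; adjusted p = 0.112). It passed with the replicate block (adjusted p = 0.0226), with total counts (adjusted p = 0.0367), with number 3 left out of both groups (log2 fold change 0.20, adjusted p = 0.0157) and without ASXL1-MT-KI library 3 (adjusted p = 0.0493).

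Irf4, on chromosome 13 from 30749226 to 30766976, had the largest fold change of these 8 members and few reads. It had 36, 23 and 40 counts in ASXL1-MT-KI libraries, against 105, 74 and 95 in wild type libraries. The highest ASXL1-MT-KI library was below the lowest wild type library. Irf4 averaged 0.741 ± 0.228 CPM in ASXL1-MT-KI and 2.08 ± 0.405 CPM in wild type (log2 fold change -1.49 ± 0.26, SE; adjusted p = 0.0054). The call held in all 14 refits, with log2 fold changes from -1.72 to -1.29 and an adjusted p of at most 0.0328. In bulk samples, fewer cells that express Irf4 and less Irf4 RNA per cell cannot be told apart.

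**Figure D2:**
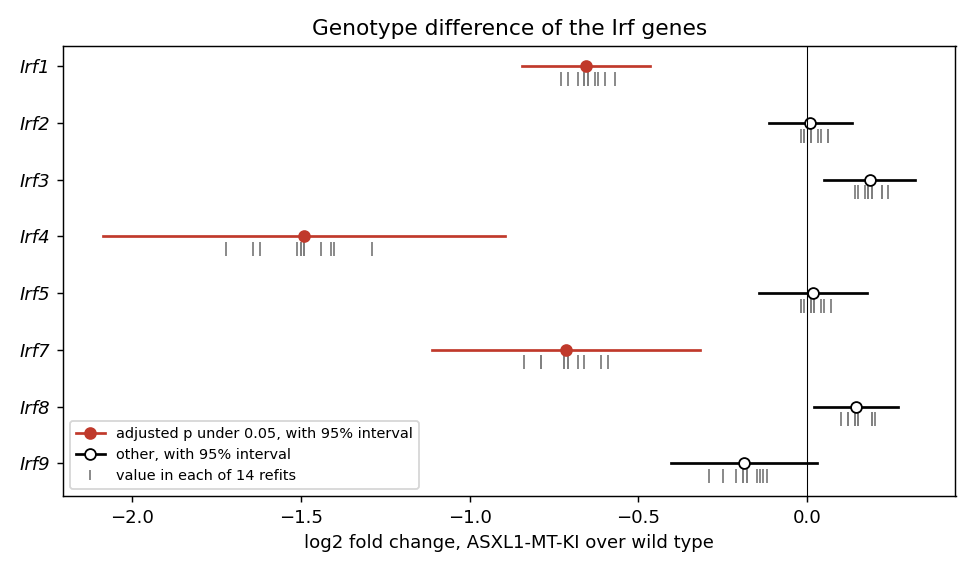
Log2 fold change of each Irf gene, ASXL1-MT-KI over wild type, from the edgeR fit, with its 95% interval (not adjusted for the number of genes) and, as grey ticks, the values in 14 refits. Irf1, Irf4 and Irf7 stay below 0 in each refit, Irf3 and Irf8 stay above 0, and Irf2 and Irf5 fall on both sides.

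Levels of different genes can be set side by side only per length, here as CPM per kilobase of the union of annotated exons. Irf8 stood at 49.2 ± 3.18 in ASXL1-MT-KI and 44.6 ± 1.02 in wild type on this scale. Irf1 followed at 20.2 in ASXL1-MT-KI and 31.8 in wild type, and Irf3 at 18.8 in ASXL1-MT-KI and 16.6 in wild type. Irf1 and Irf3 overlapped on this scale in ASXL1-MT-KI libraries (19.1 to 22.1 for Irf1 and 17.8 to 19.8 for Irf3), while in wild type libraries they did not (29.3 to 35.6 and 15.8 to 17.3). Irf5, Irf2 and Irf9 formed a middle group with overlapping ranges, between 6.33 and 7.81 in ASXL1-MT-KI and between 6.78 and 8.45 in wild type. Irf7 was at 0.865 ± 0.146 in ASXL1-MT-KI and 1.42 ± 0.245 in wild type. Irf4 was lowest, at 0.104 to 0.197 in ASXL1-MT-KI and 0.329 to 0.477 in wild type. With the longest coding transcript as the length, Irf2 moved up to the fourth rank in both groups and Irf8, Irf1 and Irf3 kept the first 3. On that length Irf1 and Irf3 did not overlap in ASXL1-MT-KI libraries (35.5 to 41.1 for Irf1 and 30.1 to 33.5 for Irf3), and Irf2 (20.3 to 21.5), Irf9 (11.5 to 14.1) and Irf5 (9.23 to 10.1) stood apart there, so these orders depend on the length used.

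As a share of the 8 members' summed level per kilobase, Irf8 made up 43.5% to 45.3% in ASXL1-MT-KI libraries and 36.4% to 39.2% in wild type libraries. Irf1 made up 16.8% to 19.5% in ASXL1-MT-KI and 25.1% to 29.9% in wild type. The ranges did not overlap for either gene, and a lower level of Irf1 raises the shares of the others by construction. The shares also depend on the length used. With the longest coding transcript Irf8 made up 50.7% to 52.5% in ASXL1-MT-KI and 43.3% to 46.1% in wild type. On that length Irf1 made up 14.6% to 17% in ASXL1-MT-KI and 22.2% to 26.7% in wild type. The ratio of Irf1 to Irf8 counts was 0.247, 0.208 and 0.241 in ASXL1-MT-KI libraries, against 0.462, 0.365 and 0.383 in wild type libraries, lower in 3 of 3 with a mean log2 difference of -0.80 (two-sided exact permutation p = 0.1, the smallest possible).

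**Figure D3:**
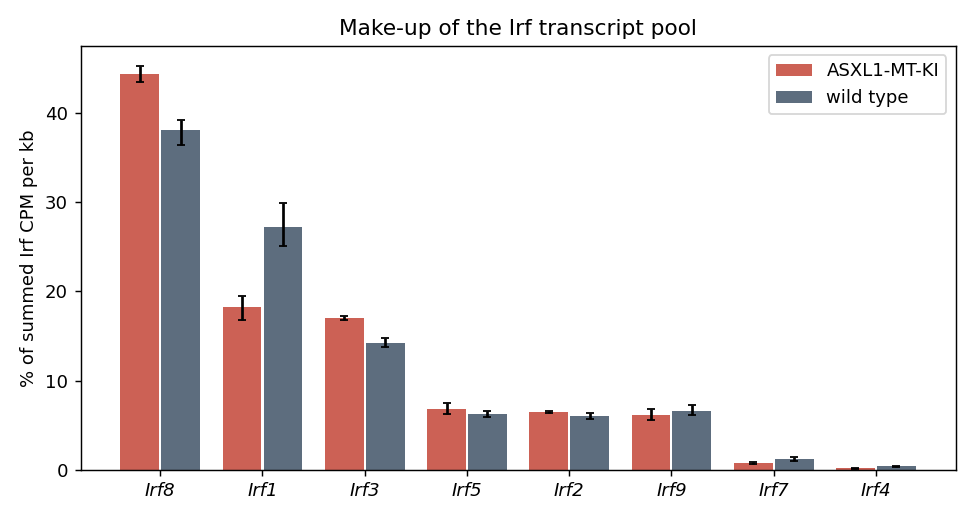
Share of each gene in the summed CPM per kilobase of exon of the 8 Irf genes, in percent, as the mean of 3 libraries with the lowest and highest library as error bars, ASXL1-MT-KI left of wild type. Irf8 holds 44.4% in ASXL1-MT-KI and 38.1% in wild type, and Irf1 holds 18.3% and 27.2%.

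For each member that fell, the 3 genes nearest in pattern were taken as those with the smallest root mean square difference of mean-centred log2 CPM over the 6 libraries, among 11634 genes with a mean of at least 50 counts. Nearest to Irf1 were Btg1, an antiproliferative gene (difference 0.040), the transcription factor gene Mef2c (0.054) and Nab2, a corepressor of EGR factors (0.0621). Nearest to Irf7 were Isg15, which encodes the interferon-induced ubiquitin-like protein (0.0754), the retinoic acid receptor gene Rara (0.0882) and Rgs2, a regulator of G protein signalling (0.0917). Nearest to Irf4 were the chromatin protein gene Hmga2 (0.172), Gimap6 (0.182) and Egr3 (0.186). The 2 groups differ in all 3 patterns, so likeness here reflects a similar genotype difference as much as similar variation between libraries.

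Interferon genes themselves were hardly detected: of 21 rows, 14 were 0 throughout and the other 7 had at most 4 counts in any library, 21 in all in ASXL1-MT-KI and 24 in wild type. Ifnb1 had 0 counts in every ASXL1-MT-KI library and 0, 0 and 3 in wild type, and a count of 0 allows up to 0.0739 CPM. Among 27 sensors, adaptors and kinases that activate IRFs, 5 fell and none rose, or 18.5% of the list called, near the 16.0% of all genes (7 and 0 at an unadjusted p under 0.05, 6 and 0 in DESeq2, 5 and 0 in limma-voom). The list's median log2 fold change was -0.07. Trim25, a ligase that activates the RNA sensor RIG-I, fell to 94.3 ± 2.32 CPM in ASXL1-MT-KI, against 123.8 ± 4.73 CPM in wild type (adjusted p = 0.00104). Irak2, a kinase of Toll-like receptor signalling, fell to 822, 769 and 686 counts in ASXL1-MT-KI, against 1045, 986 and 877 in wild type (adjusted p = 0.00521). Traf6, an adaptor ligase of the same pathway, fell by 0.24 on the log2 scale and Tlr7, a sensor of single-stranded RNA upstream of IRF7 and IRF5, by 0.92. The Traf6 call was lost without ASXL1-MT-KI library 2 or wild type library 1 (adjusted p up to 0.0761), and the Tlr7 call without ASXL1-MT-KI library 1 or 2 or wild type library 2 (adjusted p up to 0.0889) and with number 3 left out of both groups. The 5 falls became 3 without ASXL1-MT-KI library 1 or wild type library 1 and 2 without ASXL1-MT-KI library 2. Without wild type library 2, 4 fell and 1 rose, and with the block 7 fell and 3 rose. The kinase Tbk1, which phosphorylates IRF3 and IRF7, was at 56.8 CPM in ASXL1-MT-KI and 59.5 CPM in wild type (log2 fold change -0.07, adjusted p = 0.533).

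Receptors and STAT partners showed no call. Of 9 tested interferon receptor, JAK and STAT genes none passed in edgeR (1 higher and 1 lower at an unadjusted p under 0.05, 1 higher in DESeq2, none in limma-voom), the median was 0.05, and with the block 2 rose and 1 fell. Without wild type library 3, 1 fell. Stat2 was at 36.7 ± 2.67 CPM in ASXL1-MT-KI and 31.5 ± 0.45 CPM in wild type (adjusted p = 0.0553, or 0.0118 with the block). Among 16 restraints on IRF and interferon signalling, 4 fell and none rose, or 25% called (16.0% of all genes; 5 and 0 at an unadjusted p under 0.05, 4 and 0 in DESeq2, 5 and 0 in limma-voom), with a median of -0.07. Socs3, a feedback inhibitor of JAK signalling, fell to 23.4 ± 4.55 CPM, against 77.7 ± 15.8 CPM in wild type (log2 fold change -1.73, adjusted p = 0.0033). The phosphatase gene Ptpn2 fell by 0.34, Ptpn1 by 0.18 and Socs1 by 0.47 on the log2 scale. The Ptpn1 and Socs1 calls were each lost on leaving out any of 5 libraries (all but wild type library 3), with adjusted p up to 0.167 and 0.132, and with total counts, which left 2 falls. Leaving out ASXL1-MT-KI library 1 or 2 or wild type library 1 or 2 also left 2. The Socs1 call was lost in DESeq2, unfiltered and with number 3 left out of both groups (adjusted p = 0.0554) as well. With the block 5 of the list fell, among them the ubiquitin-editing enzyme gene Tnfaip3 (adjusted p = 6.54e-05, against 0.0958 without the block).

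Partners that bind DNA with IRFs, and their cofactors, had 1 of 17 tested members higher and 5 lower, or 35.3% called (16.0% of all genes; 1 and 9 at an unadjusted p under 0.05, 1 and 6 in DESeq2 and in limma-voom) and a median of -0.17. Irf2bpl, a relative of the corepressors named for binding IRF2, had 1123, 880 and 823 counts in ASXL1-MT-KI and 2461, 2294 and 1699 in wild type. It fell to 20.9 ± 2.17 CPM, against 48.5 ± 6.03 CPM in wild type (log2 fold change -1.21, adjusted p = 0.000218). Its relatives Irf2bp1, at 73.4 CPM in ASXL1-MT-KI and 69.6 CPM in wild type, and Irf2bp2, at 352.1 ± 9.17 and 396.3 ± 25.1 CPM, did not pass (adjusted p = 0.414 and 0.0655), though Irf2bp2 did with the block (adjusted p = 0.00396). Junb, which pairs with BATF at composite sites of IRF4 and IRF8, fell by 0.65, Cebpb by 0.38 and Runx1 by 0.35 on the log2 scale. Gfi1, a repressor with a role in granulocyte fate, was the member that rose, to 85.9 ± 12.9 CPM, against 58.7 ± 7.70 CPM in wild type (adjusted p = 0.0268), and it was not called without ASXL1-MT-KI library 1, wild type library 1 or wild type library 2, where 0 rose. Spi1, which encodes PU.1, the partner of IRF4 and IRF8 at ETS-IRF sites, was at 168.6 ± 8.82 CPM in ASXL1-MT-KI and 186.4 ± 10.5 CPM in wild type (adjusted p = 0.13, or 0.0404 with the block). With the block 8 of the list fell and 1 rose, among them the AP-1 gene Jund (lower, adjusted p = 5.33e-06, against 0.0942 without the block).

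Of 30 type I interferon-stimulated genes tested, 8 fell and none rose, or 26.7% of the list called (16.0% of all genes; 12 and 1 at an unadjusted p under 0.05, 9 and 0 in DESeq2, 8 and 0 in limma-voom), with a median of -0.17. Ifi44 fell to 0.671 ± 0.0494 CPM, against 2.02 ± 0.276 CPM in wild type, and Oas2, an RNA-activated antiviral enzyme, to 1.61 ± 0.11 CPM, against 3.44 ± 0.516 CPM in wild type. Rsad2, which encodes viperin, had a log2 fold change of -1.09 and Ifi27l2a of -1.96. Ifi27l2a had 12, 5 and 5 counts in ASXL1-MT-KI and 33, 32 and 20 in wild type. The count filter kept Ifi27l2a through the wild type libraries, where it is higher, so its call is no support for a fall of the list. The calls of Ifi44, Oas2, Rsad2 and Ifi27l2a held on leaving out any library. The list's 8 falls became 4 without wild type library 1, and with the block 12 fell and 2 rose. Some more abundant genes of the list did not pass: Bst2 was at 39.0 CPM in ASXL1-MT-KI and 40.2 CPM in wild type, and Pml at 114 CPM in ASXL1-MT-KI and 111 CPM in wild type (adjusted p = 0.79 and 0.696).

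Of 34 tested targets of interferon gamma and IRF1, 8 fell and 1 rose, or 26.5% called (16.0% of all genes; 12 and 2 at an unadjusted p under 0.05, 7 and 1 in DESeq2, 8 and 1 in limma-voom), with a median of -0.05. Cxcl10, a chemokine gene, had 463, 346 and 233 counts in ASXL1-MT-KI and 1240, 845 and 697 in wild type (log2 fold change -1.45, adjusted p = 0.0112), a call lost without ASXL1-MT-KI library 2 (adjusted p = 0.0623). The class I antigen genes H2-K1 and H2-D1 fell by 0.23 and 0.22 on the log2 scale, calls lost without ASXL1-MT-KI library 2 or wild type library 1 (adjusted p up to 0.0646). Gbp4, also among the 8 falls, had 8, 6 and 4 counts in ASXL1-MT-KI and 16, 13 and 24 in wild type. Gbp6, another of these falls, had 10, 22 and 14 counts in ASXL1-MT-KI and 44, 36 and 35 in wild type. The ASXL1-MT-KI libraries alone would not have kept either gene in the count filter. Gbp4 and Gbp6 passed it through the wild type libraries, so their calls are no support for a fall of the list. Il15ra, the receptor chain that presents interleukin 15, rose to 13.3 ± 1.01 CPM, against 8.67 ± 0.456 CPM in wild type (adjusted p = 0.00246). The immunoproteasome gene Psmb9 and the peptide transporter gene Tap1, which IRF1 is known to activate, had log2 fold changes of -0.02 and -0.04 (adjusted p = 0.818 and 0.665). Without ASXL1-MT-KI library 2 or wild type library 1, 1 of the list fell and 1 rose, without ASXL1-MT-KI library 1, 4 fell and 2 rose, without ASXL1-MT-KI library 3, 5 fell and 1 rose, and with the block 11 fell and 3 rose.

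**Figure D4:**
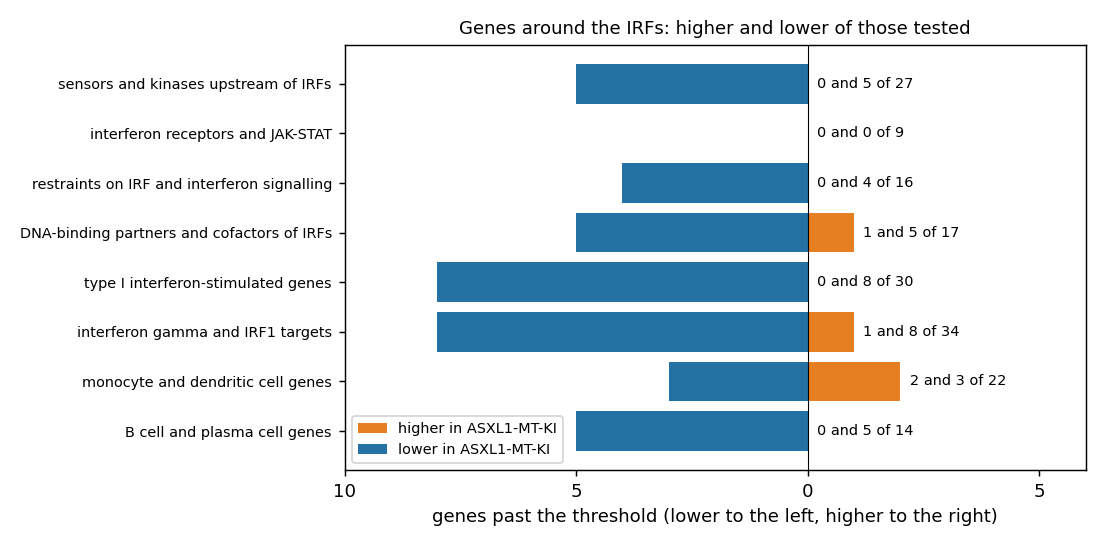
Number of genes past an adjusted p of 0.05 in each list around the IRFs, lower in ASXL1-MT-KI to the left and higher to the right, with the numbers higher and lower of those tested beside each bar. Type I interferon-stimulated genes show 0 higher and 8 lower of 30, and interferon receptor, JAK and STAT genes show none of 9.

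Genes of the lineages in which IRF8 and IRF4 act were compared in the same way. Of 22 monocyte and dendritic cell genes tested, 2 rose and 3 fell, or 22.7% called (16.0% of all genes; 3 and 3 at an unadjusted p under 0.05 and in DESeq2, 2 and 3 in limma-voom), with a median of -0.01. With the block 3 rose and 4 fell, among them the monocyte factor gene Klf4 (lower, adjusted p = 3.72e-06, against 0.347 without the block) and the chemokine receptor gene Cx3cr1 (higher, adjusted p = 0.00386, against 0.0587). The chemokine receptor gene Ccr2 fell to 42.0 ± 3.65 CPM, against 55.6 ± 2.30 CPM in wild type, and the protease gene Ctss fell by 0.38 on the log2 scale. The class II antigen gene H2-Ab1 rose to 43.5 ± 2.55 CPM, against 29.7 ± 5.32 CPM in wild type, and the monocyte surface gene Ly6c2 to 586.5 ± 45.9 CPM, against 482.5 ± 23.1 CPM in wild type. The calls of Ctss and Ly6c2 were lost without ASXL1-MT-KI library 1 or 2 or wild type library 1 (adjusted p up to 0.0868), and that of H2-Ab1 with number 3 left out of both groups. Without ASXL1-MT-KI library 1, 2 rose and 1 fell, and without ASXL1-MT-KI library 2 or wild type library 1, 1 rose and 1 fell. The receptor gene Csf1r was at 140 CPM in ASXL1-MT-KI and 138 CPM in wild type.

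Of 14 B cell and plasma cell genes tested, 5 fell and none rose, or 35.7% called (16.0% of all genes; 9 and 1 at an unadjusted p under 0.05, 6 and 0 in DESeq2, 5 and 0 in limma-voom), with a median of -1.06. Prdm1, which encodes the plasma cell regulator BLIMP1 and is a target of IRF4, had 13, 14 and 11 counts in ASXL1-MT-KI and 41, 31 and 36 in wild type (log2 fold change -1.53, adjusted p = 0.00531). Vpreb1, Cd79a and Igll1, genes of the pre-B cell receptor and its signalling chain, fell by 1.24, 1.04 and 1.08. The Vpreb1 call was lost without ASXL1-MT-KI library 2, the Cd79a call without wild type library 1, and the Igll1 call without ASXL1-MT-KI library 1 or 3 or wild type library 1 (adjusted p up to 0.074). Mzb1, also among the 5 falls, had 8, 14 and 13 counts in ASXL1-MT-KI and 27, 25 and 37 in wild type. Its ASXL1-MT-KI libraries alone would not have passed the count filter, so its call is no support for a fall of the list. The list's summed level was 193 to 198 CPM in ASXL1-MT-KI libraries and 205 to 217 CPM in wild type libraries, most of it Xbp1, and Ms4a1 had at most 2 counts. The 5 falls became 9 without ASXL1-MT-KI library 3, 2 without wild type library 1, 3 without ASXL1-MT-KI library 1 or 2, 8 with the block or with number 3 left out of both groups, and 1 of those with a CPM of at least 1 in 3 libraries. Of the 14 tested genes 12 had a log2 fold change below 0, while Cd79b (0.21, adjusted p = 0.112, or 0.031 with the block) and Cd22 (0.71, adjusted p = 0.381) were above 0. The part of B lineage cells in the fall of Irf4 was not tested.

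Markers of other cells passed in few cases. No tested member of the T and NK cell (4 genes), macrophage (8), late neutrophil (7) and mast cell, basophil and eosinophil lists (9) passed in edgeR (at an unadjusted p under 0.05, 1 T and NK cell gene was higher and 2 mast cell, basophil and eosinophil genes were lower). DESeq2 called 1 higher and 2 lower and limma-voom 3 lower in the mast cell, basophil and eosinophil list, and neither called a gene of the other 3. Leaving out wild type library 3 gave 2 T and NK cell genes and 1 macrophage gene higher, leaving out wild type library 2 gave 1 late neutrophil gene lower, and leaving out ASXL1-MT-KI library 3 gave 4 mast cell, basophil and eosinophil genes lower. With number 3 left out of both groups, 2 macrophage and 2 late neutrophil genes were higher and 1 mast cell, basophil and eosinophil gene was lower. With the block 4 macrophage and 4 late neutrophil genes rose and 3 mast cell, basophil and eosinophil genes fell, and in the T and NK cell list 1 rose and 1 fell. In that fit 30.5% of all genes were called. Summed macrophage markers were at 73.4 to 113 CPM in ASXL1-MT-KI libraries and 60.2 to 79.0 CPM in wild type libraries, most of it Vcam1, Cd68, Cd163 and Adgre1, and Marco had at most 2 counts. Vcam1, an adhesion gene, had 2172, 1225 and 2361 counts in ASXL1-MT-KI and 1332, 728 and 1099 in wild type (adjusted p = 0.202, or 7.44e-06 with the block). Summed mast cell, basophil and eosinophil markers were at 237 to 509 CPM in ASXL1-MT-KI and 525 to 606 CPM in wild type, ranges that did not overlap. Of the 9 tested, 8 had a log2 fold change below 0 and 1 above. Prg2 was at 136 CPM in ASXL1-MT-KI and 256 CPM in wild type, and Epx at 41.7 and 91.4 CPM (adjusted p = 0.223 and 0.124). Cpa3 was at 32.8 and 58 CPM (adjusted p = 0.07, or 5e-06 with the block). Summed late neutrophil markers were at 58.8 to 96.7 CPM in ASXL1-MT-KI and 43.0 to 88.0 CPM in wild type, and summed T and NK cell markers at 150 to 199 and 170 to 188 CPM, nearly all of it Nkg7. In the T and NK cell list Lck had up to 228 counts and Cd4 up to 95, while Cd3d had at most 9, Cd3e at most 3 and Cd3g none. Of 5 tested stromal and endothelial markers Pecam1, which progenitors also express, fell by 0.22, a call lost on leaving out any of 5 libraries (all but wild type library 2). Of the 10 LK markers, Cd34 fell by 0.31 and Itga2b by 0.40 on the log2 scale, the Itga2b call being lost with number 3 left out of both groups (adjusted p = 0.0537), and with the block 3 others rose. In each of these 2 lists 20% of tested genes were called, near the 16.0% of all genes. The part of these cell types in the Irf differences was not tested.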

How the data were processed

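RNA was measured by sequencing in 3 ASXL1-MT-KI and 3 wild type libraries of LK cells. Per the labels' protocols, the NEBNext Ultra kit was used on 200 ng of RNA and paired ends of 124 bp were read. The kit leaves strand unmarked. HISAT2 2.0.4 and the mm10 build are named, per the submitters' processing notes. For the counting tool, its annotation and its treatment of shared reads, nothing is given in the sources used here. Raw counts per gene symbol were deposited by the authors, without normalization.

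Counts were tested with edgeR 4.0.16 in R 4.3.3: genes were kept by filterByExpr at a minimum of 10 counts, libraries were scaled by TMM (factors 0.972 to 1.03), genotype was the sole covariate of the robust quasi-likelihood fit, and p-values were adjusted by Benjamini-Hochberg across 13548 genes. Each SE was taken from the log2 fold change and its F statistic. The pipeline was run on simulated counts drawn independently for each library. They held no replicate-number structure, so that run does not bear on the choice between the fits with and without the block. Loci and exon lengths are from GENCODE M21 (GRCm38, the assembly of mm10), and promoters from RefSeq. Exons of Irf1, Irf3, Irf7 and Irf9 share 1.19% to 3.4% of their bases with other genes. Floors at 0 counts cover counting error only.

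Members, lists and the naming rule were chosen with earlier results of these data known. Some genes of the family and lists are not reported here. The rule names the 8 Irf genes, Asxl1, up to 4 called members of each list by p and 3 genes nearest to each called Irf gene. Other genes named were chosen after their values were seen. No pair of libraries within a genotype was identical or agreed within sampling noise. No label says what a replicate number marks. Deviations from the group mean correlated across genes between same-numbered libraries at 0.253, 0.162 and 0.391. ASXL1-MT-KI 1 and wild type 2, with unequal numbers, also correlated, at 0.163. Whether equal numbers are pairs is therefore not known, and the main fit has no block. The fit was repeated with a replicate block, with total counts or the size factors of DESeq2 as scaling, with DESeq2 1.42.0 and limma-voom (limma 3.58.1) as tests, unfiltered, with CPM of 1 required in 3 libraries, without each library in turn and without number 3 in both groups. Thresholds of 0.10 for adjusted p and of 1.5 for fold were also tried. Figures were drawn with matplotlib 3.10.9.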

Additional observations from a re-analysis of the deposited data

How the results depend on the processing

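The number of Irf genes called, 3, was 6 with the replicate block, 5 with total counts, 5 with number 3 left out of both groups and 2 to 3 on leaving out 1 library. The number of all genes called, 2165, was 4132 with the replicate block, 887 at a fold of at least 1.5 and 1128 to 2257 on leaving out 1 library, where the lowest counts came without wild type library 1 (1128), ASXL1-MT-KI library 2 (1143) and ASXL1-MT-KI library 1 (1388). Irf1 and Irf4 kept their call and direction in all 14 refits. Irf7 kept its direction in all 14 and its call in 11, with adjusted p from 0.000442 to 0.0929. The replicate block changed the calls of Irf3, Irf8 and Irf9 and of no other Irf gene. Members without a call changed sign: Irf2 (0.01) ran from -0.02 to 0.04 and Irf5 (0.02) from -0.02 to 0.05 on leaving out 1 library, and Irf5 was at -0.01 with number 3 left out of both groups. The cause was not tested. When 1 library is left out, its group rests on 2 libraries, and with number 3 left out of both groups 2413 genes were called. Total counts shifted all genes by a median of 0.05 (log2). Depth limits Irf4 and Irf7, which had 23 to 281 counts a library.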

Other observations

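The number 3 library was set beside the mean of numbers 1 and 2 within each genotype. On the log2 CPM scale, Irf4 was higher in number 3 by 0.60 in ASXL1-MT-KI and 0.28 in wild type, while Irf7 differed by -0.44 and -0.43. The differences were -0.13 and -0.21 for Irf9, -0.12 and -0.10 for Irf3, -0.16 and 0.02 for Irf8, and -0.08 in both for Irf1. These are single libraries, given as values with no test. The ratio of Irf4 to Irf8 counts was 0.00211, 0.0014 and 0.003 in ASXL1-MT-KI and 0.00747, 0.00506 and 0.00737 in wild type, and that of Irf9 to Irf3 was 0.522, 0.612 and 0.563 in ASXL1-MT-KI and 0.735, 0.765 and 0.694 in wild type. Both ratios were lower in 3 of 3 ASXL1-MT-KI libraries (two-sided exact permutation p = 0.1 each, the smallest possible, and 0.1 after adjustment over 5 ratios). All 5 ratios had this p, so the adjustment leaves it at 0.1 by construction. The ratios restate the counts of the single genes and are no further support for them.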
